A study of Mus musculus with 6 samples.

Results

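The C-type lectin, Siglec, CD300, LILR, PIR and MS4A receptor genes were followed in mouse leukemia cells with and without deletion of *Phf6*. They were the protein-coding rows of the deposited table whose gene name began with Siglec, Cd300, Lilr, Pira or Pirb, or with Clec or Ms4a and a digit, together with *Cd33* and without *Ms4a2* and *Ms4a3*, which came to 72 of 54532 genes. Lin- cells of embryonic fetal liver from male mice were infected with a retrovirus that carries RUNX1-ETO9a (RE9a), a shortened form of the t(8;21) fusion protein of human acute myeloid leukemia (AML), together with GFP, and were passed through male recipient mice. The donors were *Vav1-Cre;Phf6 fl/y* (*VC Phf6,RE9a*) or *Phf6 fl/y* without Cre (*WT Phf6,RE9a*), so that the controls carry the floxed allele too. Vav1-Cre acts in blood cells in general and is not restricted to the leukemia. GFP+ leukemia cells were sorted from bone marrow and sequenced in 3 libraries a group, numbered 1, 2 and 3 in *WT Phf6,RE9a*, called control here, and 11, 12 and 13 in *VC Phf6,RE9a*. The fetal liver donors were embryos, and the other mice were young adults. The strain is not given in the sources used here. It is unknown if the libraries of each group stem from separate leukemias, so the p-values measure the spread between these libraries, which may be technical. Library totals were 16817994, 15675358 and 16691325 counts in *WT Phf6,RE9a* and 16315278, 16095424 and 16039999 in *VC Phf6,RE9a*. *Phf6* itself had 1044, 827 and 1142 counts against 388, 314 and 331, a log2 fold change (VC over WT) of -1.66 (standard error, SE, 0.13, edgeR adjusted p = 9.32e-05), and the groups did not overlap.

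These genes encode surface proteins by which myeloid cells read sugars, lipids and neighbouring cells. C-type lectins bind glycans or protein ligands, Siglecs bind sialic acid at the ends of glycans, CD300 proteins bind lipids exposed by dying cells, LILR and PIR proteins include receptors for MHC class I, and MS4A proteins cross the membrane several times and often sit beside other receptors. Inhibitory members carry tyrosine motifs (ITIMs) in their tails that recruit the phosphatases SHP-1 and SHP-2, whereas most activating members have short tails and signal through the adaptors DAP12 (*Tyrobp*) or FcRγ (*Fcer1g*) to the kinase Syk. In the bone marrow most of them mark mature granulocytes, monocytes, dendritic cells or B cells, and CD33 and CLL-1 (*Clec12a*) are used as surface targets in human AML.

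The promoters of 5 members are shown because they stand for the changes described here. *Lilr4b* fell about as far as its neighbour *Lilrb4a*, which has no promoter entry, *Pirb* fell less, *Cd300ld* and *Cd300lf* lie in 1 cluster and moved in opposite directions, and *Clec5a* rose. Each line is the 250 bases before the RefSeq start site (build GRCm38.p6), read 5′ to 3′ on the strand of the gene, with capitals for the letters of a motif searched on both strands. The RUNX letters were TGTGGT. For ETS factors such as PU.1 they were AGGAAGT. C/EBP was searched as TTGCNNAA, and GATA factors as AGATAA.
Lilr4b, chr10:51480362-51480611 (+ strand): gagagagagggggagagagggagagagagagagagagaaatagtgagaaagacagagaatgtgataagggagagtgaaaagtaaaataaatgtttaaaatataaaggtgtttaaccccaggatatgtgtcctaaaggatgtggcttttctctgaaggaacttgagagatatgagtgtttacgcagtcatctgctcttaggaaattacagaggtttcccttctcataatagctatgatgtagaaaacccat
Pirb, chr7:3720383-3720632 (- strand): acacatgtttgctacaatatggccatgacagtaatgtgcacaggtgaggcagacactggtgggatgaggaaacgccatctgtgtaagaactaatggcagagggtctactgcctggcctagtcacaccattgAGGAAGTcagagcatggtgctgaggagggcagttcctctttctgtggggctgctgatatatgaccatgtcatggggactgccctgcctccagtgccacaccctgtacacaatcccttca
Cd300ld, chr11:114989887-114990136 (- strand): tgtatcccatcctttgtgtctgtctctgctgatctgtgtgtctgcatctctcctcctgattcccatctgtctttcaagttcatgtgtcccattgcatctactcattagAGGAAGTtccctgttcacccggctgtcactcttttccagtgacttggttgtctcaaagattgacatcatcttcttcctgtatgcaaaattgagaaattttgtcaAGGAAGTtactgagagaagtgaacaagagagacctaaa
Cd300lf, chr11:115133993-115134242 (- strand): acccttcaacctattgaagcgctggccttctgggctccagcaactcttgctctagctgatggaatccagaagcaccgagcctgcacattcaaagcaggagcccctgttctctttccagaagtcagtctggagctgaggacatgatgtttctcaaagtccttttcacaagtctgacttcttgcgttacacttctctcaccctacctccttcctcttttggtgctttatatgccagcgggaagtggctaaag
Clec5a, chr6:40585806-40586055 (- strand): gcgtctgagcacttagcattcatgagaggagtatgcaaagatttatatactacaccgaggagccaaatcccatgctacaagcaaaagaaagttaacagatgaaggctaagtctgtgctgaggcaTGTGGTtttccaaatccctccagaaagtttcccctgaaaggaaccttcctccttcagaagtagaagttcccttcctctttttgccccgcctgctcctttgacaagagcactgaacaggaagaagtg
The capitals mark the ETS letters in *Pirb*, 2 ETS matches in *Cd300ld* and the RUNX letters in *Clec5a*, and the other windows hold none of the 4 motifs. RefSeq promoters were matched for 59 of the 72 members, 28 of them tested for expression. Where a gene had more than 1 entry, the one nearest the GENCODE gene start was taken for members and the first listed for all promoters. The RUNX letters were in 28.6% of these 28 promoters and in 14.2% of all 27025 promoters of the same length. Among those with the RUNX letters, the start site used lay 11257 bases from the GENCODE start in *Cd33*, 7553 in *Clec12a* and 2891 in *Ms4a4c*. The shares were 21.4% and 7.8% for ETS, 21.4% and 9.55% for C/EBP, and 0 of 28 and 10.3% for GATA. The ETS matches of *Pirb*, *Pira2* and *Lilra6* lie in the same stretch of bases, and *Ms4a6b* and *Ms4a6c* share another such stretch. Related promoters are thus counted more than once in the ETS share. By direction, 4 of 14 promoters of members that rose and 1 of 7 of those that fell held the RUNX letters, and 2 of 14 and 2 of 7 held the ETS letters. Of the 7 promoters of members that did not pass, 3 held the RUNX letters and 2 the ETS letters. These are matches of letters and do not show that a factor binds there.

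Enough counts for a test were present for 33 members, of which 17 were higher and 8 lower in *VC Phf6,RE9a* cells, past an adjusted p of 0.05 (edgeR, quasi-likelihood, Benjamini-Hochberg over 14169 genes), and 8 did not pass. Across all genes tested, 21.5% were higher and 22.7% lower, against 51.5% and 24.2% of the tested members. Changes past the threshold and of at least 2-fold were seen in 15 members that rose and 5 that fell, against 9.95% and 11.5% of all genes tested. The median log2 fold change of the members was 1.37 and that of all genes 0.013. The number of members called higher rests in part on the filter for low counts: 13 of the 33 had enough counts in *VC Phf6,RE9a* libraries only and none in control libraries only, and this route favours genes that are higher in *VC Phf6,RE9a* cells. Of these 13, 11 rose, and *Clec4a1* and *Siglech* did not pass. Of the same 33 members, 10 were higher without control library 1 or *VC Phf6,RE9a* library 11, and 11 without library 12. Among the 20 members with enough counts in both groups, 6 rose (30%) and 8 fell (40%), with a median log2 fold change of -0.63. The same filter left 12012 genes, of which 20.2% rose and 22.8% fell. The CPM of the groups did not overlap in 24 of the 33 members (72.7%), against 57.3% of all genes tested. In bulk RNA, fewer cells of a type and less RNA per cell cannot be told apart, and this holds for each gene below.

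**Figure D1:**
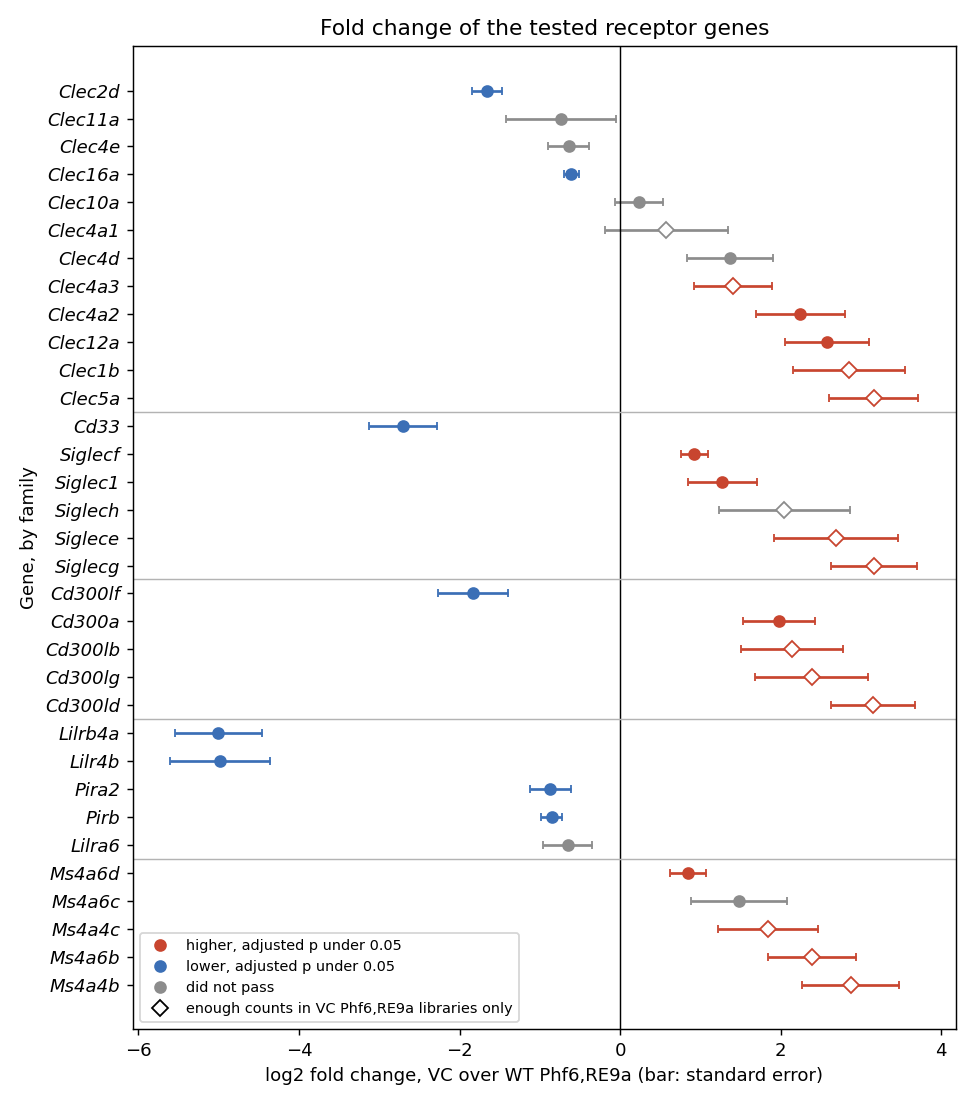
Log2 fold change of *VC Phf6,RE9a* over control for the 33 tested members, with the SE as a bar, grouped by family (lectins, Siglecs, CD300, LILR and PIR, MS4A from top to bottom). Red is higher (17), blue lower (8) and grey not past the threshold (8), and open diamonds are the 13 members with enough counts in *VC Phf6,RE9a* libraries only, whose fitted values, *Clec1b* above all, depend on few counts. *Lilrb4a* and *Lilr4b* lie far to the left, near -5.

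Levels per length were led by the gp49 genes in control cells and by Siglec-F in *VC Phf6,RE9a* cells. In FPKM (fragments scaled by gene length and library size, mean ± SD, n = 3), *Lilr4b* was at 419 ± 112 and *Lilrb4a* at 225 ± 61.1 in control cells, followed by *Pirb* at 26.0 ± 4.77, *Clec2d* at 20.9 ± 4.53, *Siglecf* at 15.8 ± 3.07 and *Cd33* at 15.6 ± 3.33. From *Pirb* to *Cd33*, the ranges of mean ± SD of neighbours in this order overlapped. In *VC Phf6,RE9a* cells the order was *Siglecf* at 29.9 ± 4.34, *Pirb* at 14.3 ± 0.77, *Lilr4b* at 13.2 ± 8.72 and *Ms4a6d* at 11.3 ± 2.41. Siglec-F lay above the other 3 beyond their spread, and *Pirb*, *Lilr4b* and *Ms4a6d* did not separate. Members with a mean of at least 5 FPKM over the 6 libraries, a limit set after the values were seen, numbered 10, of which 2 rose and 7 fell. Of the 23 tested members under that level, 15 rose and 1 fell. These numbers depend on single libraries: over all 33 tested members, 10 rose without control library 1 or *VC Phf6,RE9a* library 11. *Ms4a6d*, 1 of the 2 that rose at or above 5 FPKM, lost its call in both of these fits. Of all genes tested, 22.9% rose and 24.3% fell at or above 5 FPKM and 19.7% and 20.6% below it. With enough counts in both groups required, 10 members under 5 FPKM remained, of which 4 rose and 1 fell, against 15.2% and 20.3% of all genes so limited.

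**Figure D2:**
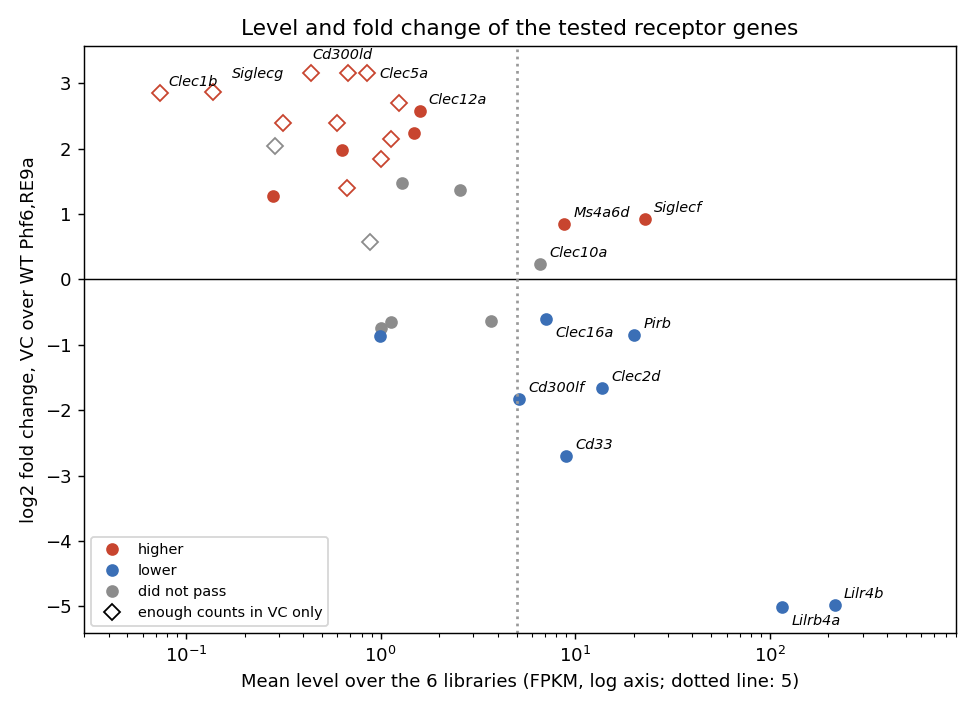
Mean level over the 6 libraries (FPKM, log axis) against the log2 fold change of *VC Phf6,RE9a* over control for each tested member, with the same colours and symbols. Members to the right of the dotted line at 5 FPKM are mostly blue (7 of 10), and those to the left mostly red (15 of 23).

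Of the LILR and PIR genes, 4 of 5 tested were lower, against 22.7% of all genes tested, and none was higher, and each of the 5 had enough counts in both groups. The 2 gp49 genes and *Pirb* kept their call in every fit without a library. The gp49 genes *Lilr4b* and *Lilrb4a* lie side by side on chromosome 10, from 51480632 to 51496611 of GRCm38 (16 kb). *Lilrb4a* encodes gp49B, an inhibitory receptor with ITIMs known from mast cells and myeloid cells, and *Lilr4b* the related gp49A, which lacks ITIMs. *Lilr4b* had 39018, 40444 and 26435 counts in control libraries and 1928, 1435 and 336 in *VC Phf6,RE9a* libraries. *Lilrb4a* had 19533, 21447 and 13757 against 935, 741 and 209. For both genes every *VC Phf6,RE9a* library lay far under every control library, library 3 was the lowest control and *VC Phf6,RE9a* library 13 the lowest of all. The log2 fold change was -4.98 for *Lilr4b* (SE 0.62, edgeR adjusted p = 0.000649), a level 31.6-fold lower, and -5.00 for *Lilrb4a* (SE 0.54, adjusted p = 0.000359), a level 32.1-fold lower. The counts of *Lilr4b* were 2.0, 1.89 and 1.92 times those of *Lilrb4a* in control libraries and 2.06, 1.94 and 1.61 times in *VC Phf6,RE9a* libraries. Together both genes made up 96.8, 96.6 and 95.9% of the CPM of the LILR and PIR family in control libraries and 69.7, 64.2 and 33.1% in *VC Phf6,RE9a* libraries. Of the 100-base windows of *Lilr4b*, 4.66% also occur in other genes, most often in *Lilrb4a*. Of those of *Lilrb4a*, 29.0% occur in other genes, most often in the overlapping gene model *Gm49339*, which had at most 7 counts in a library.

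The paired immunoglobulin-like receptors lie on chromosome 7 and changed less. *Pirb*, an inhibitory receptor for MHC class I, had 1812, 2036 and 1577 counts in control libraries and 1156, 1104 and 1037 in *VC Phf6,RE9a* libraries. The groups did not overlap, and the *VC Phf6,RE9a* libraries lay close together. Its log2 fold change was -0.85 (SE 0.14, edgeR adjusted p = 0.00198), and 24.6% of its windows occur in other genes. *Pira2*, an activating partner of the family, had 69, 77 and 62 against 41, 49 and 35 counts, with a log2 fold change of -0.87 (SE 0.26, adjusted p = 0.0287). This call was lost in 5 of the 6 fits that left out a library, and 86.5% of the windows of *Pira2* occur in another gene, so that its counts cannot be assigned with certainty. *Lilra6*, a further activating PIR-A gene, had 72, 64 and 62 against 47, 61 and 30 counts and did not pass (log2 fold change -0.65, SE 0.31, adjusted p = 0.121).

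Of the 6 Siglecs tested, 3 had enough counts in both groups, and of these *Siglecf* and *Siglec1* were higher and *Cd33* was lower. The other 3, *Siglecg*, *Siglece* and *Siglech*, entered through *VC Phf6,RE9a* libraries only. *Cd33*, at chr7:43524216-43544428, is the mouse counterpart of the human AML surface marker. It had 2144, 1986 and 1533 counts in control libraries and 489, 344 and 123 in *VC Phf6,RE9a* libraries. The groups were far apart, and library 13 was the lowest. The log2 fold change was -2.70 (SE 0.43, edgeR adjusted p = 0.00197). *Siglecf*, an inhibitory receptor known from eosinophils and alveolar macrophages, had 571, 621 and 897 counts in control and 1383, 1263 and 1659 in *VC Phf6,RE9a* libraries. The groups did not overlap, and here libraries 3 and 13 were the highest of their groups. The log2 fold change was 0.93 (SE 0.17, adjusted p = 0.00338). The summed level of the family, to which *Cd33* gave the most counts in controls, went down, from 169 ± 16.7 to 116 ± 10.8 CPM (SD, n = 3).

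The other Siglecs were read at low counts. *Siglecg*, an inhibitory receptor of B cells, had 5, 3 and 12 counts in control and 75, 87 and 35 in *VC Phf6,RE9a* libraries. The groups did not overlap, and library 13 was the lowest of its group. Its log2 fold change was 3.16 (SE 0.54, edgeR adjusted p = 0.00270) and 3.82 without control library 3. *Siglece*, an inhibitory receptor of neutrophils and monocytes, had 7, 10 and 12 against 116, 80 and 11 counts. Library 13 lay among the controls, so the groups overlapped, and the call (log2 fold change 2.69, SE 0.77, adjusted p = 0.0242) was lost in 5 of 6 fits without a library (2.09 without library 11). *Siglec1*, the sialoadhesin of macrophages, had 12, 30 and 12 against 55, 48 and 42 counts. The groups were apart, but this call (log2 fold change 1.27, SE 0.43, adjusted p = 0.0447) was also lost in 5 of 6 such fits, while the change was 1.90 without control library 2. *Siglech*, an activating receptor of plasmacytoid dendritic cells, had 2, 2 and 14 against 49, 22 and 10 counts, with the groups overlapping, and did not pass (log2 fold change 2.04, SE 0.82, adjusted p = 0.0768). It was higher without control library 3 (3.50, edgeR adjusted p = 0.0229) and without library 13 (2.43, adjusted p = 0.0489), and at 1.30 without library 11 (adjusted p = 0.278). *Siglec15* had 0 counts in every library, which allows up to 3 counts a library.

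Of the CD300 genes, 5 of 12 were tested, but 3 of them (*Cd300lb*, *Cd300ld* and *Cd300lg*) had enough counts in *VC Phf6,RE9a* libraries only. Of the other 2, *Cd300a* rose and *Cd300lf* fell. *Cd300lf*, an inhibitory receptor that binds phosphatidylserine and ceramide, had 809, 610 and 517 counts in control libraries and 322, 193 and 82 in *VC Phf6,RE9a* libraries. It was the most abundant gene of the family, its groups did not overlap, and library 13 was again the lowest. The log2 fold change was -1.83 (SE 0.43, edgeR adjusted p = 0.0109). *Cd300ld*, an activating receptor that pairs with FcRγ, had 8, 4 and 5 against 83, 58 and 27 counts. Every *VC Phf6,RE9a* library lay above every control, and the log2 fold change was 3.15 (SE 0.52, adjusted p = 0.00243). *Cd300a*, an inhibitory receptor for lipids of dying cells, had 13, 15 and 30 against 110, 94 and 44 counts. It too was apart in the groups, with a log2 fold change of 1.97 (SE 0.45, adjusted p = 0.00930).

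*Cd300lb*, an activating receptor that signals through DAP12, had 8, 16 and 34 counts in control and 126, 121 and 31 in *VC Phf6,RE9a* libraries. Library 13 lay under control library 3, so the groups overlapped, and the call (log2 fold change 2.14, SE 0.64, edgeR adjusted p = 0.0279) was lost in 4 of 6 fits without a library, while the change was 2.75 without control library 3. *Cd300lg*, known from the endothelium of small vessels, had 4, 0 and 9 against 32, 24 and 19 counts, and its call (log2 fold change 2.39, SE 0.71, adjusted p = 0.0272) was lost in 3 of 6 such fits, while the change was 3.40 without control library 3. The list of endothelial and stromal markers (4 of 8 tested, 2 higher against 21.5% of all genes, *Tek* with the most counts) summed to 2.99, 2.24 and 5.27 CPM in control and 13.9, 22.7 and 9.39 CPM in *VC Phf6,RE9a* libraries. *Tek* had 0 counts in every control and 72, 217 and 27 in *VC Phf6,RE9a* libraries, while *Emcn* was at 0 in all and *Cdh5* at no more than 12 counts. Their part in *Cd300lg* was not tested. The summed CPM of the family was 45.4 ± 9.42 in control and 28.3 ± 14.4 in *VC Phf6,RE9a* cells, and *Cd300lf* made up most of it in the controls.

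Of the C-type lectin genes, 12 of 30 were tested, and 8 of these had enough counts in both groups, of which 2 were higher, 2 lower and 4 did not pass, against 20.2% higher and 22.8% lower of all genes with enough counts in both. The other 4, *Clec1b*, *Clec4a1*, *Clec4a3* and *Clec5a*, entered through *VC Phf6,RE9a* libraries only. Among inhibitory receptors, *Clec12a*, the CLL-1 of human AML, had 19, 28 and 74 counts in control libraries and 384, 244 and 150 in *VC Phf6,RE9a* libraries. Control library 3 and *VC Phf6,RE9a* library 13 came closest to each other, but the groups did not overlap. Its log2 fold change was 2.58 (SE 0.52, edgeR adjusted p = 0.00568) and 3.27 without control library 3. *Clec4a2* (DCIR), an inhibitory receptor of dendritic cells and granulocytes, had 16, 21 and 35 against 189, 141 and 42 counts. These groups were apart by few counts at libraries 3 and 13, with a log2 fold change of 2.25 (SE 0.56, adjusted p = 0.0137). The related *Clec4a3* had 4, 9 and 10 against 34, 15 and 18 counts (log2 fold change 1.41, SE 0.49, adjusted p = 0.0492), a call that was lost in every fit without a library.

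Among activating lectins, *Clec5a* (MDL-1), which signals through DAP12 in neutrophils and monocytes, had 10, 5 and 16 counts in control and 156, 101 and 46 in *VC Phf6,RE9a* libraries. The groups were well apart, and the log2 fold change was 3.16 (SE 0.55, edgeR adjusted p = 0.00306). *Clec4e* (Mincle), a receptor for mycobacterial glycolipids that pairs with FcRγ, had 311, 366 and 370 against 352, 203 and 178 counts. Library 11 lay within the control range, and the gene did not pass (log2 fold change -0.64, SE 0.26, adjusted p = 0.0768), whereas it was lower without that library (adjusted p = 0.00712). Its neighbour *Clec4d* (MCL) had 34, 24 and 51 against 176, 91 and 38 counts and did not pass either (log2 fold change 1.37, SE 0.54, adjusted p = 0.0731), but was higher without *VC Phf6,RE9a* library 13 (1.76, adjusted p = 0.0160) and at 0.71 without library 11 (adjusted p = 0.283). The platelet receptor *Clec1b* (CLEC-2), a receptor for podoplanin, had 0, 3 and 1 against 12, 11 and 11 counts, at least 3.45-fold higher measured against a floor of 3 counts a library (adjusted p = 0.0132). Of its ligand *Pdpn*, 3 counts were seen in library 11 and 0 elsewhere.

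The other tested lectins have roles outside this division. *Clec2d* (Clr-b), a surface ligand of the NK receptor NKR-P1B, had 462, 397 and 322 counts in control libraries and 137, 132 and 141 in *VC Phf6,RE9a* libraries. The *VC Phf6,RE9a* libraries were nearly equal and all under the controls, and the log2 fold change was -1.66 (SE 0.19, edgeR adjusted p = 0.000422), the smallest adjusted p in this family. *Clec16a*, named for a lectin fold but known as an intracellular protein of endosomes and mitophagy, had 1163, 1105 and 1107 against 756, 798 and 864 counts. Its groups were apart, with a log2 fold change of -0.61 (SE 0.095, adjusted p = 0.00180). *Clec10a* (MGL1), which binds galactose and N-acetylgalactosamine, had 192, 346 and 287 against 382, 235 and 446 counts and did not pass (log2 fold change 0.24, SE 0.30, adjusted p = 0.553). *Clec11a*, a secreted growth factor, and *Clec4a1* did not pass either (adjusted p = 0.417 and 0.576), with ranges of 13 to 96 and 1 to 42 counts over all libraries. The summed CPM of the lectins was 152 ± 7.17 in control and 134 ± 24.2 in *VC Phf6,RE9a* cells.

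**Figure D3:**
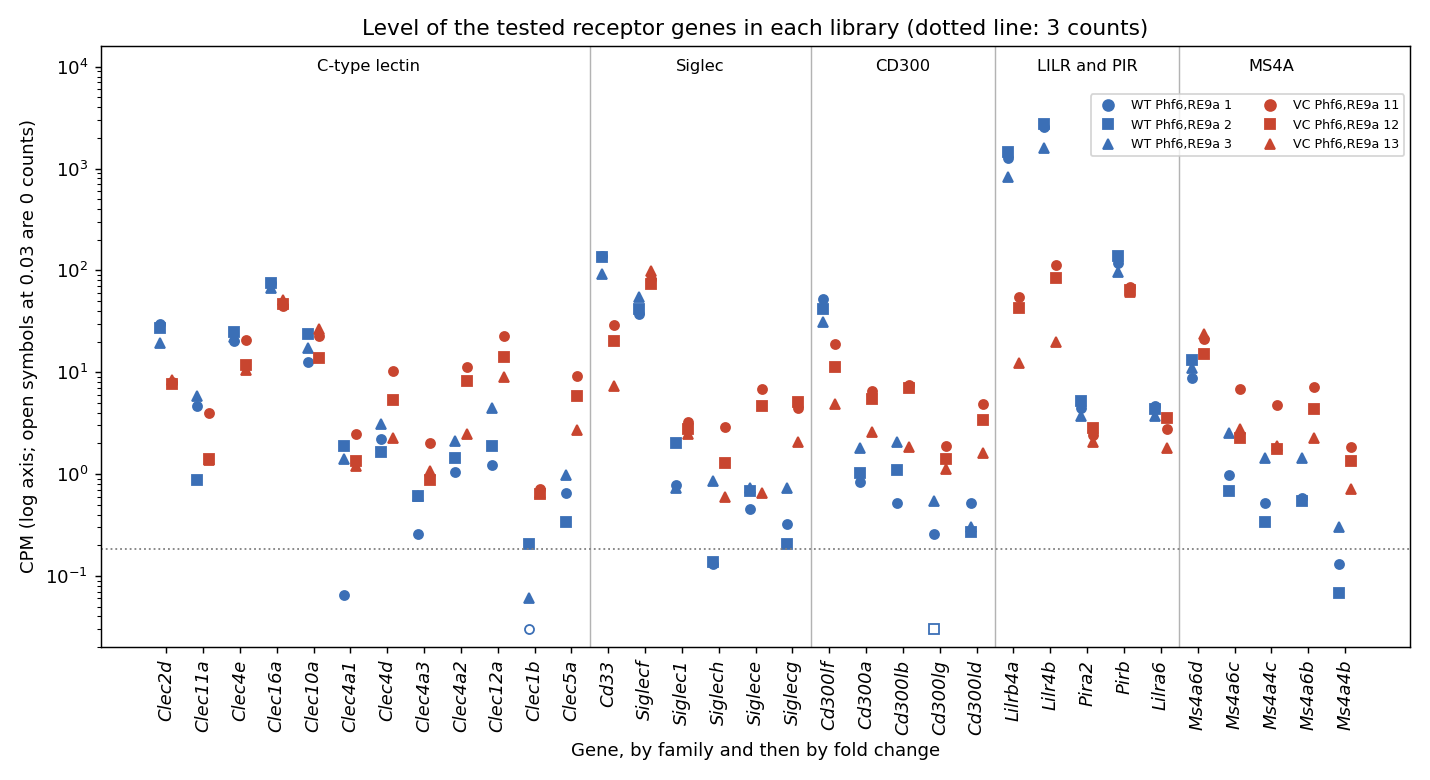
Level of each tested member in each library (CPM on a log axis, with control in blue and *VC Phf6,RE9a* in red, symbols for the library, open symbols at 0 counts, and a dotted line at 3 counts). The gp49 genes hold the highest blue points, and every red point of both lies under all of their blue points. In 15 of the 17 genes that rose, every blue point is under 5 CPM.

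Of the MS4A genes, 5 of 17 were tested, and 3 of them (*Ms4a4b*, *Ms4a4c* and *Ms4a6b*) entered through *VC Phf6,RE9a* libraries only. Of the other 2, *Ms4a6d* was higher and *Ms4a6c* did not pass. *Ms4a6d*, a gene of monocytes and macrophages and the most abundant of the family, had 136, 196 and 181 counts in control libraries and 356, 258 and 395 in *VC Phf6,RE9a* libraries. The groups did not overlap, and the log2 fold change was 0.85 (SE 0.22, edgeR adjusted p = 0.0172), a call lost in 3 of 6 fits without a library. *Ms4a6b* had 9, 8 and 24 against 121, 74 and 38 counts, with a log2 fold change of 2.39 (SE 0.55, adjusted p = 0.0101) and 2.99 without control library 3. *Ms4a4b*, known from T cells, had 2, 1 and 5 against 31, 23 and 12 counts, with a log2 fold change of 2.87 (SE 0.60, adjusted p = 0.00668) and 3.60 without control library 3. Both genes were apart in the groups, and library 13 was the lowest of its group. *Ms4a4c* had 8, 5 and 24 against 81, 30 and 32 counts (log2 fold change 1.84, SE 0.62, adjusted p = 0.0440), a call lost in 5 of 6 such fits (2.68 without control library 3 and 1.23 without library 11). *Ms4a6c* had 15, 10 and 42 against 115, 39 and 47 counts and did not pass (log2 fold change 1.48, SE 0.60, adjusted p = 0.0793), but was higher without control library 3 (2.24, adjusted p = 0.0254) and at 0.85 without library 11 (adjusted p = 0.294), and 53.1% of its exon bases overlap the antisense gene *BE692007*. The sum of the family was 15.5 ± 3.69 CPM in control and 34.9 ± 9.90 CPM in *VC Phf6,RE9a* cells. *Ms4a1* (CD20 of B cells) stayed under the filter, with 0, 0 and 1 against 41, 19 and 8 counts, at least 6.90-fold higher against 3 counts a library and at least 4.09-fold without library 11.

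The 39 members without a test were rare or absent. No read was seen for 10 of them in any library, among them *Siglec15*, *Clec18a*, *Ms4a5* and *Ms4a10*. The Dectin-2 gene *Clec4n* had at most 5 counts, and *Clec9a*, a receptor of cross-presenting dendritic cells, at most 8. *Cd300c2*, an activating receptor, had 4, 7 and 5 against 37, 8 and 10 counts, and *Clec2i* 3, 1 and 7 against 26, 20 and 6, with the highest value in library 11 for both. Of the remaining members, *Ms4a4a* and *Ms4a8a* reached 19 and 16 counts in a control library.

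By signaling type, a division made after the values were seen, 9 of 10 inhibitory members were tested, and 6 rose and 3 fell. Of 13 activating members 9 were tested, and 4 rose, 1 fell and 4 did not pass, beside 21.5% higher and 22.7% lower of all genes. Enough counts in *VC Phf6,RE9a* libraries only were held by 2 of the 9 inhibitory and 5 of the 9 activating members, among them all 4 activating members that rose. The inhibitory members that fell were *Lilrb4a*, *Pirb* and *Cd300lf*, and those that rose were *Siglece*, *Siglecf*, *Siglecg*, *Cd300a*, *Clec12a* and *Clec4a2*. The adaptors split. *Tyrobp* (DAP12) had 2012, 1997 and 1501 counts in control and 715, 577 and 351 in *VC Phf6,RE9a* libraries, with a log2 fold change of -1.88 (SE 0.26, edgeR adjusted p = 0.00108). *Fcer1g* (FcRγ) had 35, 37 and 79 against 306, 220 and 122 counts, with a log2 fold change of 1.99 (SE 0.42, adjusted p = 0.00662). In both adaptors the groups did not overlap.

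Of the 16 adaptors and kinases tested, 4 rose and 11 fell (21.5% and 22.7% of all genes tested did), with a median of -0.59. *Lat2* (NTAL), a scaffold of mast cell and B cell receptors, had 1501, 1543 and 1108 counts in control and 94, 106 and 121 in *VC Phf6,RE9a* libraries (log2 fold change -3.83, SE 0.20, edgeR adjusted p = 2.84e-05). *Syk* had 1194, 2875 and 2374 against 682, 569 and 197 counts (log2 fold change -2.29, adjusted p = 0.00643). Both were lower in every *VC Phf6,RE9a* library. *Prkcd*, a kinase downstream of Syk, had a log2 fold change of -1.41 (adjusted p = 8.24e-05), the scaffold *Lcp2* (SLP-76) one of -0.90 (adjusted p = 0.00117) and *Btk* one of -0.41 (adjusted p = 0.00425). Among the genes that rose were *Fcer1g*, the kinase *Fgr* and *Card9*, which links lectins to NF-κB, with log2 fold changes from 1.98 to 2.06, and *Fgr* lost its call in 2 of 6 fits without a library. *Plcg2* did not pass. Of the ITIM-binding phosphatases and their companion kinase, *Inpp5d* (SHIP1) had 13264, 13134 and 10704 against 6778, 6249 and 7084 counts (log2 fold change -1.02, adjusted p = 0.00102). *Ptpn6* (SHP-1), *Ptpn11* (SHP-2) and *Csk* did not pass, with log2 fold changes of -0.03, -0.02 and 0.09.

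Of the enzymes that make, attach or remove sialic acid, the ligand of Siglecs, 17 of 18 were tested, 7 rose, 4 fell and 6 did not pass, with a median of 0.09, against 21.5% higher and 22.7% lower among all genes. Without control library 1, or *VC Phf6,RE9a* library 11 or 12, 4 rose. *St6gal1*, which adds sialic acid in α2,6 linkage, had 1219, 1169 and 952 counts in control and 422, 407 and 450 in *VC Phf6,RE9a* libraries (log2 fold change -1.52, SE 0.14, edgeR adjusted p = 0.000191). *St8sia4*, a polysialyltransferase, had 1718, 2378 and 1697 against 610, 655 and 731 counts (log2 fold change -1.67, SE 0.18, adjusted p = 0.000328). Both were lower in every *VC Phf6,RE9a* library. Of the α2,3 sialyltransferases, *St3gal6* rose (log2 fold change 1.40, adjusted p = 0.000932), as did *St3gal5* (0.85, adjusted p = 0.00885), *St3gal1* (0.52, adjusted p = 0.0276) and *St3gal3* (0.88, adjusted p = 0.0271), the last 2 of which lost the call in 4 of 6 fits without a library, while *St3gal2* fell (-1.38, adjusted p = 0.00118) and *St3gal4* did not pass (-0.21, adjusted p = 0.137) but was lower without control library 3 (-0.31, adjusted p = 0.0263). Of 7 tested ligands and carriers of lectins and Siglecs, *Anxa1* (log2 fold change 2.31) and the Siglec ligand *Cd24a* (0.47, a call lost in 4 of 6 fits without a library) rose, and *Vim* fell (-3.35, adjusted p = 9.69e-05). Without control library 2, *Spn* and *Selplg* were lower too. The counts of *Vim* were 38746, 33001 and 26805 against 3428, 4671 and 2510, with the groups far apart.

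The members lie in gene clusters. In some clusters neighbours moved in opposite directions, and in others the members that changed all moved in 1 direction. In the Siglec cluster on chromosome 7, from 43351341 to 43660161 (309 kb), *Cd33* fell between *Siglecf* and *Siglecg* on one side and *Siglece* on the other, which rose. In the CD300 cluster on chromosome 11, from 114890041 to 115133992 (244 kb), *Cd300a*, *Cd300lb* and *Cd300ld* rose and *Cd300lf* at its end fell. The NK gene complex on chromosome 6, from 128662385 to 129452000 (790 kb), held *Clec2d*, which fell, and *Clec12a* and *Clec1b*, which rose. In the Dectin-2 cluster on chromosome 6, from 122921848 to 123289870 (368 kb), *Clec4a2* and *Clec4a3* rose and *Clec4d*, *Clec4e* and *Clec4a1* did not pass. In the MS4A cluster on chromosome 19, from 10962293 to 11604849 (643 kb), 4 of 5 tested members rose and none fell. In the PIR and LILR cluster on chromosome 7, from 3711409 to 4243463 (532 kb), 2 of 3 fell and none rose. Both genes of the gp49 pair on chromosome 10 fell. Of all genes tested, 21.5% were higher and 22.7% lower. Of the genes that rose here, *Cd300lb*, *Cd300ld*, *Clec1b*, *Clec4a3*, *Siglecg*, *Siglece*, *Ms4a4b*, *Ms4a4c* and *Ms4a6b* entered through *VC Phf6,RE9a* libraries only. These spans are those of the members alone and leave out other genes between them.

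**Figure D4:**
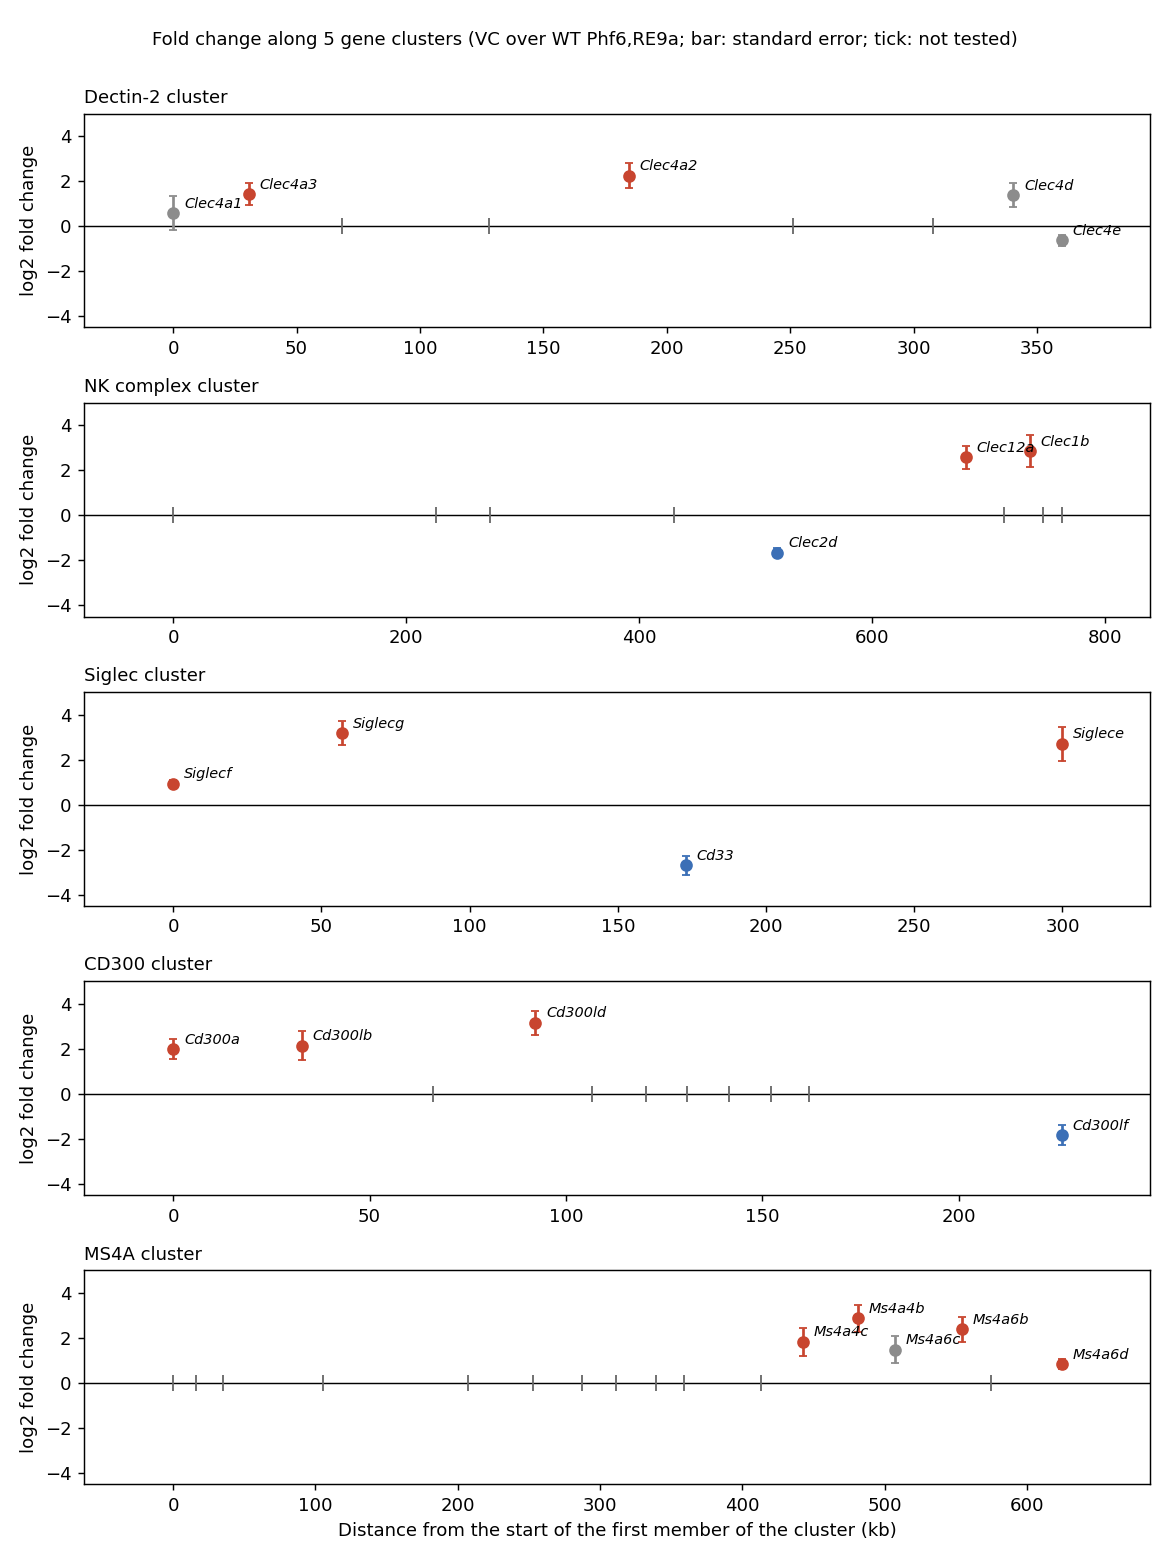
Log2 fold change of *VC Phf6,RE9a* over control (bar, SE) against the distance in kb from the first member of each of 5 clusters, with ticks for members without a test. Red points rose, blue fell and grey did not pass. *Cd33*, *Cd300lf* and *Clec2d* are the blue points among red neighbours.

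The members that changed often shared an order of libraries. Of the 17 members that rose, 12 (70.6%) had their lowest *VC Phf6,RE9a* value in library 13, against 38.2% of all 3047 genes that rose, and 12 (70.6%) had their highest control value in library 3, against 51.6%. However, 11 of these 17 entered through *VC Phf6,RE9a* libraries only, and the shares were not taken separately for the rest. Of the 8 that fell, 6 (75%) had their lowest *VC Phf6,RE9a* value in library 13, against 39.2% of the 3213 genes that fell, and library 3 was the lowest control in all 8, against 55.1% of those genes. The neutrophil marker list (12 genes, *S100a9* with the most counts) summed to 202, 166 and 509 CPM in control and 3890, 2501 and 1021 CPM in *VC Phf6,RE9a* libraries, with 12 of 12 genes higher (21.5% of all genes tested were), so library 13 was the lowest and library 3 the highest there as well. None of its genes was at 0, and *Ly6g* had 6, 5 and 15 against 177, 125 and 36 counts. Of the same 33 members, 15 were higher and 7 lower without library 13, and 16 were higher and 8 lower without library 3. The part of neutrophils in the members that rose was not tested.

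Markers of other cells moved beside single members, and their counts of genes stand against 21.5% higher and 22.7% lower among all genes tested. The eosinophil list (8 genes, *Prg2* with the most counts) summed to 18.4, 14.9 and 23.1 CPM in control and 59.5, 130 and 68.0 CPM in *VC Phf6,RE9a* libraries, with 5 of 8 genes higher, and was highest in library 12, where *Siglecf* was the lowest of its group. The B cell list (7 of 9 tested, 5 higher, *Ighm* with the most counts) summed to 7.21, 11.9 and 20.9 against 92.6, 102 and 34.3 CPM, and *Cd79a* had 10, 7 and 2 against 84, 77 and 40 counts, beside *Siglecg* and *Ms4a1*. On this list *Cd22* (log2 fold change -1.02) and *Igkc* (1.70) did not pass. The list of plasmacytoid dendritic cells (5 of 8 tested, 4 higher, *Bst2* with the most counts) summed to 49.9, 63.7 and 76.3 against 211, 169 and 161 CPM, beside *Siglech*. Mast cell and basophil markers, beside the gp49 genes, were lower for 11 of 11 genes and summed to 30886, 35131 and 21289 against 6138, 6449 and 6490 CPM (*Hdc* with the most counts, *Fcer1a* 12065, 8395 and 7528 against 92, 92 and 86 counts). *Prss34* on this list lost its call in 3 of 6 fits without a library. The mast cell gene *Ms4a2*, which is not on the list, did not pass (log2 fold change -0.13, edgeR adjusted p = 0.519). Macrophage markers, beside *Siglec1*, summed to 21.5, 31.5 and 17.2 against 42.8, 39.6 and 40.8 CPM, with 3 of 9 tested genes higher. Of these 3, *Mertk* lost the call in 5 of 6 fits without a library and *Axl* in 2. *Vcam1* had the most counts, and *Marco*, *Timd4* and *Vsig4* were at no more than 5 counts in a library. Platelet and megakaryocyte markers, beside *Clec1b*, summed to 390, 363 and 268 against 61.5, 80.2 and 63.9 CPM, with 2 of 6 tested genes higher and 3 lower, *Itga2b* with the most counts, *Gp9* at 3, 2 and 0 against 16, 21 and 24 counts, and *Ppbp* and *Gp6* at no more than 7 counts. The part of these cells in the members was not tested.

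Beside *Ms4a6d*, the monocyte markers summed to 427, 463 and 337 CPM in control and 277, 216 and 125 CPM in *VC Phf6,RE9a* libraries. Of these 8 genes, 1 was higher (*Ly6c2*) and 3 lower, against 21.5% and 22.7% of all genes tested. Those lower were *Cx3cr1*, *Nr4a1*, which had the most counts, and *Ccr2*, which lost its call in 5 of 6 fits without a library. Beside *Clec4a2*, the markers of conventional dendritic cells summed to 22.9, 26.5 and 43.2 against 97.9, 95.4 and 67.7 CPM, with 2 of 6 tested genes higher. *Itgax* lost this call in 1 of 6 fits without a library, and *Flt3* and *H2-Aa* each passed as higher in 1. *Zbtb46* had the most counts, and *Xcr1* and *Batf3* were at no more than 4 counts. Beside *Ms4a4b*, the T and NK cell markers summed to 1.56, 1.83 and 1.94 against 9.92, 6.41 and 4.75 CPM, *Cd3e* had at most 6 counts, and of 11 genes *Il2rb* alone was tested and rose. Erythroid markers summed to 1933 ± 399 and 5482 ± 442 CPM (SD, n = 3), with 8 of 8 higher and *Hbb-bs* with the most counts. Of 8 genes of leukemia and blood cell identity, 4 rose, among them *Mpo* and *Itgam*, which lost the call in 2 and 4 of 6 fits without a library, and *Cd34* fell. *Runx1* was read at 14339, 13127 and 13269 against 12132, 12429 and 12431 counts and the leukocyte marker *Ptprc* at 500, 180 and 386 against 961, 831 and 306, so the markers of blood cells were present in every library. The sort took GFP+ cells, and the part of cells of other types in the members was not tested.

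**Figure D5:**
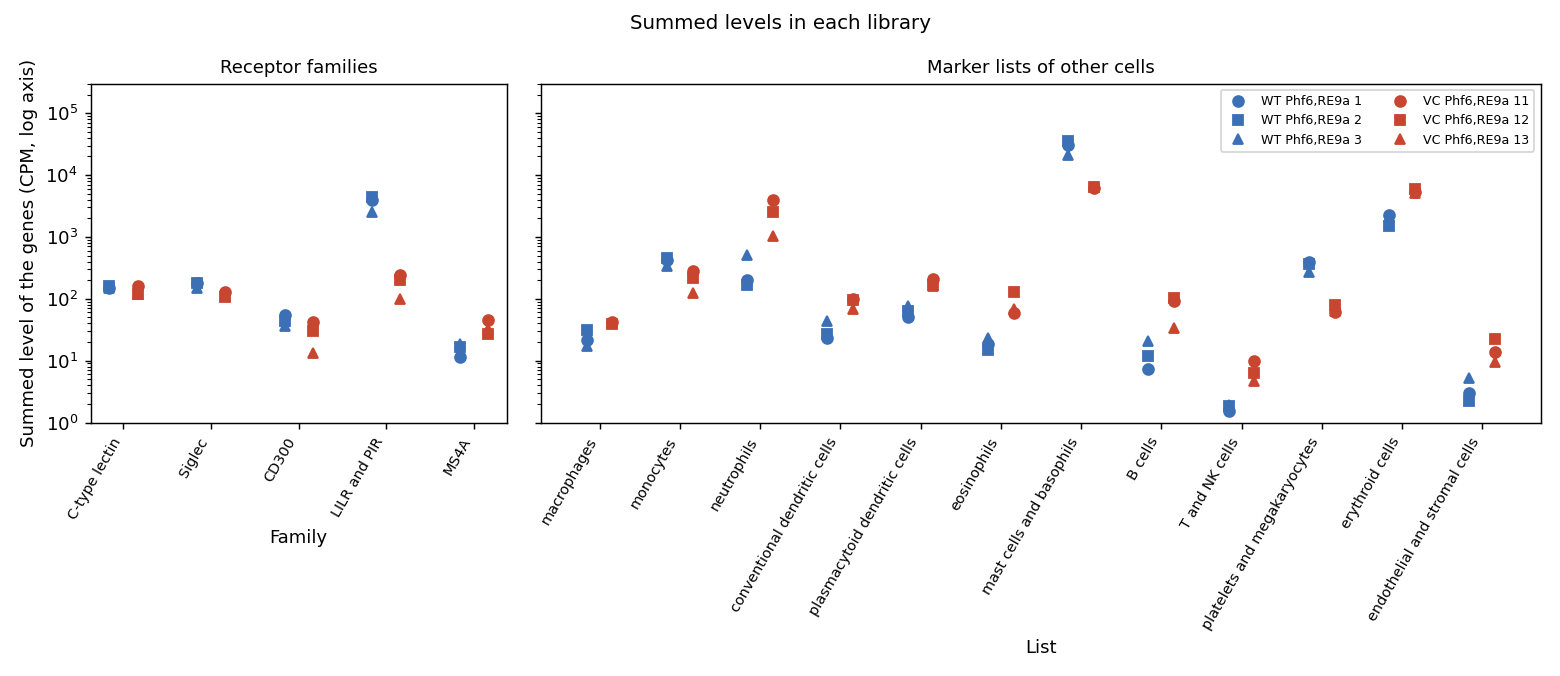
Summed level in each library (CPM, log axis) of the 5 receptor families on the left and of 12 marker lists of other cells on the right, with control in blue and *VC Phf6,RE9a* in red. The LILR and PIR sum drops from 3603 ± 948 to 179 ± 74.0 CPM, while the MS4A sum and the neutrophil, B cell and eosinophil lists are higher in all 3 red points.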

How the data were processed

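RNA of GFP+ cells was sequenced in 3 *WT Phf6,RE9a* and 3 *VC Phf6,RE9a* libraries (TruSeq libraries, paired-end). The authors deposited raw counts per Ensembl gene, FPKM values that the authors scaled by gene length and library size, and, from their DESeq2 comparison, group means of normalized counts (a signal), p-values and log2 fold changes, none of which was used here. The submitters' processing notes name Bowtie 0.12.0 and an mm8 build, whereas 54495 of 54532 deposited identifiers were found in GENCODE M21 (GRCm38), 98.33% with the same start and end, so coordinates are given on GRCm38. The annotation release, counting tool and strandedness are not given in the sources used here.

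Counts were filtered (filterByExpr, about 0.617 CPM in 3 libraries), scaled by TMM and tested with edgeR 4.0.16 (quasi-likelihood, Benjamini-Hochberg, threshold 0.05) in R 4.3.3. The prior count was left at the edgeR default, so fold changes of genes near 0 counts are little shrunk. CPM uses TMM library sizes. Standard errors are the log2 fold change over the square root of F. A floor of 3 counts a library (at most 0.204 CPM) covers counting error only. Alternatives were DESeq2 1.42.0, RLE, other filters and thresholds, limma 3.58.1 on log2(FPKM + 1) and log2(FPKM + 0.1), related genes of a local group summed and each library left out. An exact test of 3 against 3 libraries cannot go below 0.1. On simulated counts of 13898 genes, 52 of 95 genes changed by 2-fold and 88 of 100 changed by 4-fold were recovered, with 8 false calls among 13703. Only 200 genes of any level were changed there, whereas 44.2% of the genes tested passed in the data. These rates therefore need not hold for members with few counts in control libraries. The members, lists and tests were chosen with earlier results of these data known. Named genes are *Phf6* and, per family, the 4 with the highest FPKM, the 3 smallest p and the largest changes, with further members described for completeness. Of the adaptor, phosphatase and sialic acid lists, the 3 genes with the smallest p and the 3 with the highest FPKM are named. *Fcer1g*, *Syk*, *Fgr*, *Card9*, *Plcg2*, *Ptpn11*, *St3gal2*, *St3gal3* and the genes of the ligand list were named after their values were seen. Roles were assigned after the values were seen. Protein motifs were not analysed here, and single genes of some lists are not reported here. Figures were drawn with matplotlib 3.10.9.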

Additional observations from a re-analysis of the deposited data

How the results depend on the processing

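No paired analysis was possible because the groups share no replicate number. Of the members, 10 of 17 that rose, 7 of 8 that fell and 4 of 8 that did not pass kept their call in every fit without 1 library. Leaving out 1 library gave 10 to 18 members higher (10 without *VC Phf6,RE9a* library 11 and 11 each without *WT Phf6,RE9a* library 1 and *VC Phf6,RE9a* library 12) and 7 to 8 lower, 2 to 4 Siglec and 2 to 4 CD300 genes higher (2 each without library 1, 11 or 12), 2 to 6 MS4A genes higher (2 without library 11), 4 to 6 sialic acid genes higher, 1 to 2 lectin ligands higher and 1 to 3 lower (3 without *WT Phf6,RE9a* library 2). These counts are over the genes tested in each fit, 33 to 37 of them members, since the filter was applied anew. Of the same 33 members 10 to 16 were higher, and of the same 5 MS4A genes 2 to 5, with 2 each without *WT Phf6,RE9a* library 1 and *VC Phf6,RE9a* library 11 or 13. These fits also hold fewer samples, and the part of that in the smaller counts was not tested. With at least 10 counts in every library, which drops 13 of the 33 members, 6 members were higher and the median was -0.61, with 2 C-type lectin, 2 Siglec, 1 CD300 and 1 MS4A genes higher. At an adjusted p under 0.01, 7 members were higher, with 2 C-type lectin, 2 Siglec, 2 CD300, 1 MS4A, 3 sialic acid and 1 lectin ligand genes higher and 0 CD300 genes lower. With a change of at least 2-fold required, 5 members were lower, among them 1 C-type lectin and 2 LILR and PIR genes, 6 adaptors and kinases were lower, and 1 sialic acid and 1 lectin ligand gene were higher. With limma on log2(FPKM + 1) the median was 0.38, and both limma fits gave 1 lectin ligand higher. With related genes summed into 1 row per local group (such as Clec4a, Cd300l, Ms4a4 and Ms4a6), whether or not they share sequence, 1 of 2 MS4A rows was higher. Of the named genes, the sign of *Ptpn6* (-0.12 to 0.049, above 0 without *WT Phf6,RE9a* library 1 and at 0.024 without *VC Phf6,RE9a* library 13) and of *Csk* (-0.010 to 0.14, under 0 without *WT Phf6,RE9a* library 2) turned when a library was left out, as did that of *Ptpn11* (-0.07 to 0.02), with none of them past the threshold. The median of all genes tested was 0.002 with RLE and -0.007 with DESeq2. DESeq2 also called *Clec4e* (adjusted p = 0.0433) lower and *Ms4a6c* (adjusted p = 0.0390) higher. Low counts in the control libraries limit most of the members that rose. Beyond the filters and samples named, the cause of these changes was not tested.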

Other observations

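*Clec7a* (Dectin-1, the receptor for fungal β-glucans) is listed as a polymorphic pseudogene in the deposited table and so stands outside the members. It had 43, 34 and 66 counts in *WT Phf6,RE9a* libraries and 253, 163 and 70 in *VC Phf6,RE9a* libraries. Library 13 again lay next to control library 3, and the log2 fold change was 1.65 (standard error 0.46, edgeR adjusted p = 0.0225). *Ms4a3*, a gene of granulocyte-monocyte progenitors left out of the members, had 41, 35 and 75 against 264, 165 and 103 counts (log2 fold change 1.70, standard error 0.40, adjusted p = 0.0113). *Ms4a2*, the beta chain of the IgE receptor of mast cells, also left out, had 17646, 16299 and 21294 against 16431, 16048 and 22274 counts and did not pass (log2 fold change -0.13, standard error 0.15, adjusted p = 0.519), while *Fcer1a*, the alpha chain of the same receptor, was at 12065, 8395 and 7528 against 92, 92 and 86 counts.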
